A study of Mus musculus with 6 samples.

Results

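The ciliary margin is the rim of the optic cup, where the outer pigmented layer meets the inner neural layer, and it gives rise to the ciliary body and the iris. The 10 genes described here, *Msx1*, *Msx2*, *Zic1*, *Zic2*, *Wt1*, *Tbx2*, *Tbx3*, *Tbx5*, *Vax1* and *Vax2*, encode transcription factors known from this rim or from the dorsal or ventral side of the cup. They were chosen by name, and the probe set with the highest mean that the platform annotation ties to that symbol alone stood for each gene. All 10 had such a probe set, 1 each, out of 19938 genes in the series with a probe set of their own.

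The series holds 6 Affymetrix Mouse Gene 1.0 ST arrays of retinal pigmented epithelium (RPE) from mouse embryos at E15.5 on the C57BL/6J background. The 3 arrays labelled control are from *Pax6*loxP/loxP embryos, and the 3 arrays labelled mutant are from *Pax6*loxP/loxP;*DctCre* embryos, so both groups carry the floxed allele and differ in the Cre transgene. The transgene acts in pigment cell progenitors of the outer optic cup, and it removes the exons encoding the paired domain of the transcription factor PAX6, while transcripts without that domain can persist. Each array received 300 ng of total RNA from a tube of pooled embryos that had been sorted by how pigmented the tissue was, with tail samples to check genotype, and each tube served as 1 repeat. The controls were littermates.

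A cup divides into sectors under opposing signals. On the dorsal side, bone morphogenetic proteins maintain the T-box genes *Tbx2*, *Tbx3* and *Tbx5*, and on the ventral side Sonic hedgehog and retinoic acid go together with the homeobox genes *Vax1* and *Vax2*. At the rim, Wnt and bone morphogenetic protein signals go together with *Msx1*, and *Zic* and *Msx* genes are known from the peripheral cup.

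*Pax6*, the deleted gene, measured 9.15, 9.02 and 9.22 (log2) across control replicates 1, 2 and 3, against 9.0, 8.97 and 8.74 across mutant replicates 1, 2 and 3. The groups were 0.03 apart. Every signed value subtracts the control-labelled mean from the mutant-labelled mean, on the log2 scale. The sample labels were kept throughout, but the study gives the opposite direction. Its text has *Wnt2b* and the pigment gene *Tyrp1* reduced and *Msx2* raised in the mutant, and its QRT-PCR and antibody labelling of pigment genes run the same way as that text, whereas the array labels put *Wnt2b* and *Tyrp1* higher and *Msx2* lower. Its deposited table of group means runs against the array labels too. Of its 100 entries 79 were matched to probe sets through symbol plus RefSeq number, and the group means of all 79 met those of the arrays within 0.1 log2 only when the group names were exchanged, *Msx2*, *Zic1* and *Wt1* among them. With exchanged names every difference given here would change sign and keep its size, error and p. As labelled, the difference of *Pax6* was -0.23 (standard error, SE, 0.09; 95% confidence interval from -0.43 to -0.03; adjusted p = 0.73, limma). The position of the *Pax6* probes against the deleted exons was not examined, and transcripts without the paired domain can persist. The *Pax6* signal is therefore no check of the labels.

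The arrays were alike as a whole, with medians between 4.86 and 4.93 and correlations between 0.992 and 0.995. All 12 RPE markers had a probe set, with a mean log2 signal per array between 7.48 and 7.93. Among the 12, *Rpe65* and *Best1* were under the array median on every array. With the mutant label *Ttr* was lower while *Rrh*, *Rlbp1* and *Tyrp1* were higher (limma, adjusted p under 0.05), for *Tyrp1* the reverse of the study's direction. Arrays differed in markers of neural retina progenitors, whose mean over the 8 genes used was 7.01, 5.77 and 6.49 on control replicates 1, 2 and 3 and 6.74, 6.40 and 5.41 on mutant replicates 1, 2 and 3. Control replicate 1 was thus the highest and mutant replicate 3 the lowest, and the summed linear signal ran from 624 to 2250 and from 395 to 1820 in the groups labelled control and mutant. Over the 9 surface ectoderm markers the sums did not overlap (2930 to 3570 against 3830 to 4910), and of these genes *Dsg3* alone passed the test, higher on the arrays labelled mutant. Of the 9, 1 had a difference below 0, and 4 were higher and 0 lower without overlap (6.23% and 5.17% of all genes). Of 6 smooth muscle markers *Myh11* alone passed, also higher. None of the 11 of 12 periocular mesenchyme markers measured, of the 6 endothelial and of the 6 melanocyte markers passed (limma, adjusted p under 0.05). The part of other cell types in the results was not tested, apart from a fit with the retinal progenitor mean as a covariate.

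The promoters of the *Msx* pair and of *Zic1* are shown because *Msx2* and *Msx1* differ in how far they were apart between the groups, and because *Zic1* is among the genes whose groups were separate. Each line is the 250 bases before the start site on the gene's own strand, from RefSeq on GRCm38.p6, for *Msx1* at chr5:37824586-37824835, *Msx2* at chr13:53472781-53473030 and *Zic1* at chr9:91365769-91366018, all on the minus strand. Capitals mark the letters of a motif.
Msx1: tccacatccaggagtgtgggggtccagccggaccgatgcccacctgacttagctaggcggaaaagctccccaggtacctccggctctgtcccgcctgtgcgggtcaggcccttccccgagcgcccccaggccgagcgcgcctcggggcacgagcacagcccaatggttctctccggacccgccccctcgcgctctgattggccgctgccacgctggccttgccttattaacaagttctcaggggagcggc
Msx2: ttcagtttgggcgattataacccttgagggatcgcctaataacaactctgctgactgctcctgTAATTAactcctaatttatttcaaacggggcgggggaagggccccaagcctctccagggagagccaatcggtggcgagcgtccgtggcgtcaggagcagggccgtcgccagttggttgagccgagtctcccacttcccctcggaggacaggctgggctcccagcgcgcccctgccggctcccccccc
Zic1: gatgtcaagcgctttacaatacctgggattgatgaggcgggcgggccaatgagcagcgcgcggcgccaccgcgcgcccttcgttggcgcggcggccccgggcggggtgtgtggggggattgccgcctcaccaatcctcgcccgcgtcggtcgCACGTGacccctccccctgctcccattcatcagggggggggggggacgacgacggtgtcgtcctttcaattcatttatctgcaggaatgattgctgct

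A search of both strands used 7 motifs: CATGTG (an E-box bound by MITF), CACGTG (the canonical E-box), TAATTA (a homeodomain core), TCACACC (a T-box half-site), ATCAAAG (a TCF/LEF site), GCGGGGGCG (a WT1/EGR site) and CAGCAGG (a ZIC site). *Msx2* held TAATTA at -187 to -182 from its start, a word present in 4.84% of the 32851 RefSeq promoters of this length. *Zic1* held CACGTG at -98 to -93, which 6.02% of promoters hold. *Msx1* held none of the 7 words. Of the other words, the MITF E-box, the T-box half-site, the TCF/LEF, the WT1/EGR and the ZIC site are held by 12.3%, 3.33%, 3.21%, 2.57% and 8.44% of promoters. The *Msx1*, *Msx2* and *Zic1* windows had a GC content of 68%, 61.6% and 66% with 20, 16 and 27 CpG dinucleotides, above the medians of all promoters (52.4% and 6). Of the 10 genes 4 had a promoter in the RefSeq table used here, the fourth being *Vax1*, whose window held CTTTGAT, the reverse of ATCAAAG, at -216 to -210.

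Among the 10 genes, 2 were lower with the mutant label at an adjusted p below 0.05 (*Wt1* and *Tbx2*), where 0.0953% of all genes were. None was higher at that threshold, where 0.331% of all genes were. At an unadjusted p under 0.05 by limma, 5 were lower (*Msx2*, *Zic1*, *Wt1*, *Tbx2* and *Tbx5*) and 0 were higher. The shares of all genes there were 2.81% lower and 3.52% higher. The methods' t-test called 0 of all 23410 probe sets after adjustment, so its count for these genes carries no information. Without control replicate 1 and mutant replicate 3, the arrays at the ends of the retinal progenitor range, 1 gene passed, *Msx2*, and with the progenitor mean as a covariate 4 did (*Wt1*, *Tbx2*, *Tbx5* and *Msx2*). Over all 23410 probe sets these fits called 12 and 34 lower, against 19 with all arrays and no covariate. Both alternatives were added after seeing the data. The groups did not overlap for 5 genes, all lower (*Wt1*, *Tbx2*, *Tbx5*, *Msx2* and *Zic1*), against 5.17% of all genes, and for 0 in the higher direction, against 6.23%. The median difference over the 10 genes was -0.43, with 9 below 0, and that over all genes was 0.00. In pooled tissue, fewer cells with a transcript and less of it per cell cannot be told apart. The study reports that iris and ciliary body progenitors failed to form in the *Pax6*loxP/loxP;*DctCre* cup, seen in embryos older than those used here. That report follows the study's own genotypes, while the counts above follow the array labels. In the study's group means *Msx2*, *Wt1* and *Zic1* were higher in the mutant (5.41, 5.6 and 5.96 against 4.56, 4.76 and 5.26 in the control). Whether the missing progenitors bear on the values of the 10 genes was not tested.

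**Figure D1:**
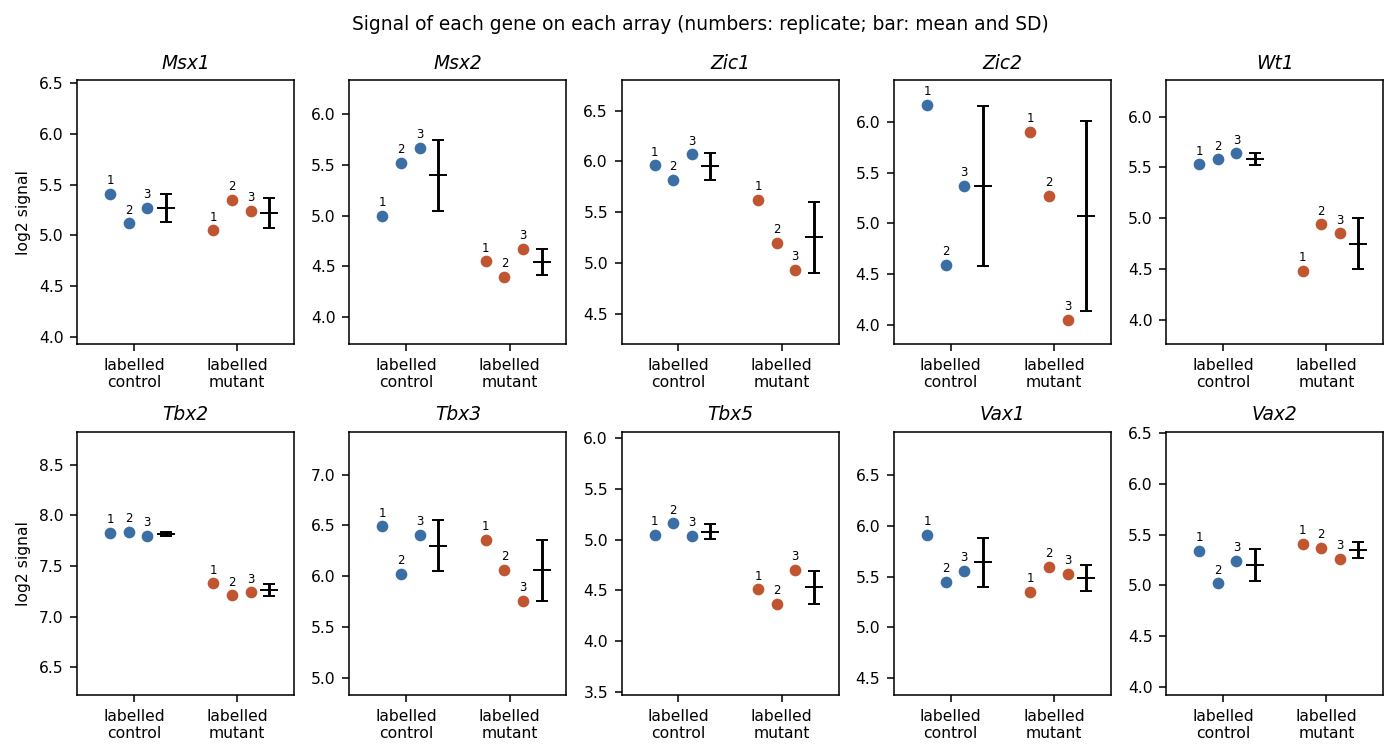
Log2 signal of each of the 10 genes on each of the 6 arrays (blue, labelled control; orange, labelled mutant; digits, replicate number; bar, mean and SD of 3 arrays), with vertical axes that span the same log2 range but are placed separately for each gene. *Wt1*, *Tbx2*, *Tbx5*, *Msx2* and *Zic1* show separate groups, and *Zic2* covers a range of 2.12 over the 6 arrays.

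*Wt1* encodes a zinc finger factor needed for the kidney and the gonad and for retinal ganglion cells. Its log2 signal was 5.53, 5.58 and 5.64 with the control label and 4.48, 4.94 and 4.85 with the mutant label. Every array labelled mutant lay below every array labelled control, with a gap of 0.59, and mutant replicate 1 was the lowest. *Wt1* was 1.78-fold lower (difference -0.83, SE 0.12, 95% confidence interval from -1.10 to -0.56, adjusted p = 0.033, limma). With 1 array left out at a time the difference ran from -0.92 to -0.69, and it passed the threshold in 1 of 6 such fits, without mutant replicate 1 (adjusted p = 0.029); over the others adjusted p was between 0.062 and 0.22. The call also ended when all 35556 probe sets were tested (adjusted p = 0.15) and by the methods' t-test (adjusted p = 0.58), which called no probe set. *Wt1* was above the array median on 4 of 6 arrays.

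*Wt1* is a neighbour of *Pax6*, and in the RefSeq order of protein-coding genes on GRCm38.p6 only *Them7* and *Rcn1* lie between them. *Them7* had a difference of 0.03 (SE 0.15) and *Rcn1*, which encodes a calcium-binding protein of the endoplasmic reticulum, one of 0.02 (SE 0.06), with adjusted p = 0.99 for both (limma). Within this stretch *Wt1* was the gene that passed the test.

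*Msx1* and *Msx2* are homeobox repressors that respond to bone morphogenetic proteins, and *Msx1* is a known marker of the forming ciliary body. *Msx2* was at 5.0, 5.52 and 5.67 on the log2 scale with the control label and at 4.55, 4.4 and 4.67 with the mutant label. The groups were 0.34 apart, and control replicate 1 was 0.59 below the mean of the other controls, closest to the mutant-labelled arrays. The difference of -0.86 (SE 0.16, 95% confidence interval from -1.23 to -0.48) is the largest in size among the 10 genes and did not pass (adjusted p = 0.13, limma). Without control replicate 1 it was -1.05 and passed (adjusted p = 0.0098), and without any other single array it did not, with differences between -0.92 and -0.72. Of the 6 arrays 3 were above the array median, the controls.

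*Msx1* gave log2 signals of 5.41, 5.12 and 5.27 in the control-labelled group and 5.05, 5.35 and 5.24 in the mutant-labelled group. The groups overlapped and the 6 values spanned 0.36. The difference was -0.05 (SE 0.10, adjusted p = 0.99, limma), with a 95% confidence interval from -0.28 to 0.18. Taken within each array, the log2 ratio of *Msx2* to *Msx1* was lower by 0.81 on the arrays labelled mutant, without overlap, and the exact permutation test (two-sided) gave p = 0.1, the smallest that 3 arrays against 3 allow (adjusted p = 0.2 over 4 gene pairs). The pairs were chosen with values of these genes known.

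*Zic1* and *Zic2* encode zinc finger factors of the dorsal neural tube and the peripheral retina, and *Zic2* directs the ipsilateral projection of ganglion cells in the mouse. *Zic1* measured 5.96, 5.82 and 6.07 (log2) across control replicates 1, 2 and 3, against 5.62, 5.20 and 4.93 across mutant replicates 1, 2 and 3. The groups were 0.20 apart, and the 3 mutant-labelled values were more spread (SD 0.35) than the controls (SD 0.13). *Zic1* was 1.62-fold lower without passing the test (difference -0.70, SE 0.16, 95% confidence interval from -1.07 to -0.33, adjusted p = 0.26, limma).

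*Zic2* was at 6.17, 4.59 and 5.37 on the log2 scale with the control label and at 5.90, 5.27 and 4.05 with the mutant label. The groups overlapped throughout, and the range of 2.12 was the widest of the 10 genes. The difference was -0.30 (SE 0.51, 95% confidence interval from -1.48 to 0.87, adjusted p = 0.99, limma). Its sign turned when single arrays were dropped, to 0.09 without control replicate 1 and 0.21 without mutant replicate 3. Within arrays, the change in the *Zic1* to *Zic2* ratio was -0.40 with overlap (exact permutation test, two-sided, p = 0.6; adjusted p = 0.6).

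The arrays ran from high to low *Zic2* in the order control 1, mutant 1, control 3, mutant 2, control 2 and mutant 3. Of the 8 retinal progenitor markers 3 ran in this same order: *Sox2*, *Rax* and *Six6*, which encode transcription factors of the early eye field and of dividing retinal cells. Over the 6 arrays their ranges were 2.46, 2.55 and 2.0. Of the other 9 genes described here 0 ran in exactly this order. *Tbx3* came near it, with only control 3 and mutant 1 exchanged. This comparison of orders was made after the values of *Zic2* had been seen, and *Sox2* was named for it. With the mean of the 8 markers as a covariate the difference of *Zic2* was 0.02 (adjusted p = 0.99, limma).

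**Figure D2:**
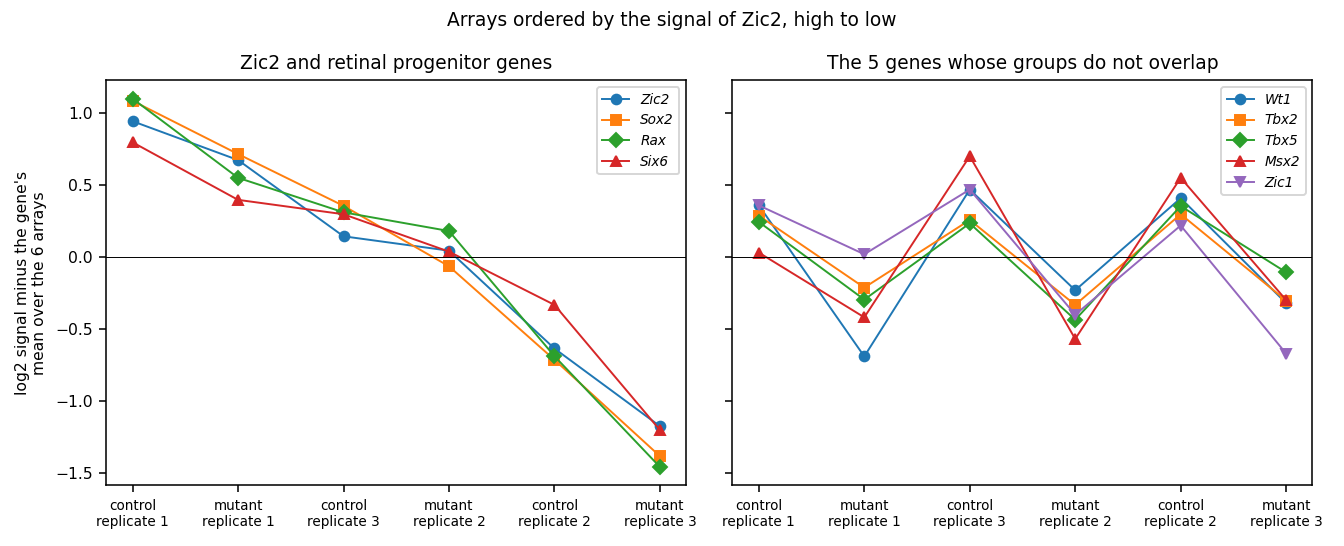
Log2 signal of each gene minus its mean over the 6 arrays, with arrays placed from high to low *Zic2*. On the left are *Zic2* and the 3 markers picked for having its order of arrays, with ranges between 2.0 and 2.55, and on the right are the 5 genes picked for groups that do not overlap, so the descent on the left and the alternation on the right follow from the choice of genes.

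The T-box genes *Tbx2*, *Tbx3* and *Tbx5* mark the dorsal cup, where *Tbx5* responds to BMP4. *Tbx2* gave log2 signals of 7.83, 7.84 and 7.80 in the control-labelled group and 7.33, 7.21 and 7.24 in the mutant-labelled group. The groups were 0.47 apart, and the SD within a group was 0.02 and 0.06, the smallest of the 10 genes in each group. *Tbx2* was 1.47-fold lower (difference -0.56, SE 0.06, 95% confidence interval from -0.69 to -0.43, adjusted p = 0.0076, limma). With 1 array left out at a time the difference was between -0.60 and -0.53, and the adjusted p reached 0.051 when control replicate 3 was dropped, 0.065 for mutant replicate 2 and 0.056 for mutant replicate 3, staying under 0.05 in the other 3 fits. By the methods' t-test the adjusted p was 0.20. *Tbx2* was above the array median on all 6 arrays.

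*Tbx5* measured 5.05, 5.16 and 5.04 (log2) across control replicates 1, 2 and 3, against 4.51, 4.37 and 4.70 across mutant replicates 1, 2 and 3. The groups were 0.34 apart, with the controls above the array median and the arrays labelled mutant below it. The difference of -0.55 (SE 0.09, 95% confidence interval from -0.76 to -0.35) was of nearly the same size as that of *Tbx2* and missed the threshold (adjusted p = 0.063, limma). It passed under centring on the 75th percentile of each array (adjusted p = 0.042) and when the genes rather than the probe sets were tested (adjusted p = 0.044).

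*Tbx3* was at 6.49, 6.02 and 6.41 on the log2 scale with the control label and at 6.36, 6.06 and 5.76 with the mutant label. The groups overlapped, with control replicate 2 between mutant replicates 2 and 3. The difference was -0.25 (SE 0.17, 95% confidence interval from -0.64 to 0.15, adjusted p = 0.96, limma). Without control replicate 1 and mutant replicate 3 it was 0.0. With the retinal progenitor mean as a covariate it was -0.15 (adjusted p = 0.77, limma).

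The T-box genes lie in pairs on the genome. *Tbx3* and *Tbx5* are neighbours, and the change in their ratio within arrays, *Tbx5* over *Tbx3*, was -0.31 with overlap (exact permutation test, two-sided, p = 0.4; adjusted p = 0.53). *Tbx4*, the neighbour of *Tbx2* and a gene of hindlimb development, gave log2 signals of 4.72, 4.45 and 4.9 in the control-labelled group and 4.88, 4.77 and 4.86 in the mutant-labelled group, with a difference of 0.15 (SE 0.11). The *Tbx2* to *Tbx4* ratio was lower by 0.71 on the arrays labelled mutant without overlap (exact permutation test, two-sided, p = 0.1, the smallest possible; adjusted p = 0.2). *Tbx4* was under the array median on every array, so this ratio rests on the change of *Tbx2* against a dim probe set.

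*Vax1* and *Vax2* are homeobox genes of the ventral cup and optic stalk, and mice without them have a coloboma. *Vax1* measured 5.91, 5.45 and 5.56 (log2) across control replicates 1, 2 and 3, against 5.35, 5.60 and 5.53 across mutant replicates 1, 2 and 3. Only control replicate 1 stood above the rest, 0.40 over the mean of the other controls. The difference was -0.14 (SE 0.12, 95% confidence interval from -0.43 to 0.14, adjusted p = 0.98, limma).

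*Vax2* was at 5.34, 5.02 and 5.24 on the log2 scale with the control label and at 5.41, 5.37 and 5.26 with the mutant label. The groups overlapped. *Vax2* was the gene among the 10 with a difference above 0 (0.15, SE 0.09, 95% confidence interval from -0.06 to 0.36, adjusted p = 0.93, limma). Its interval starts below 0 and ends under 1.5-fold higher.

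At the methods' threshold, an unadjusted p under 0.05 with a fold of at least 1.5, 3 of the 10 genes were lower (*Msx2*, *Zic1* and *Wt1*), where 0.13% of all genes were. Higher genes numbered 0 at that threshold, where 0.346% of all genes were. The fold of *Tbx2* and *Tbx5*, 1.47 for each, was under this limit although their p was small. *Tbx2*, with the smallest spread, and *Msx2*, with the largest difference, thus fell on opposite sides of the 2 rules.

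**Figure D3:**
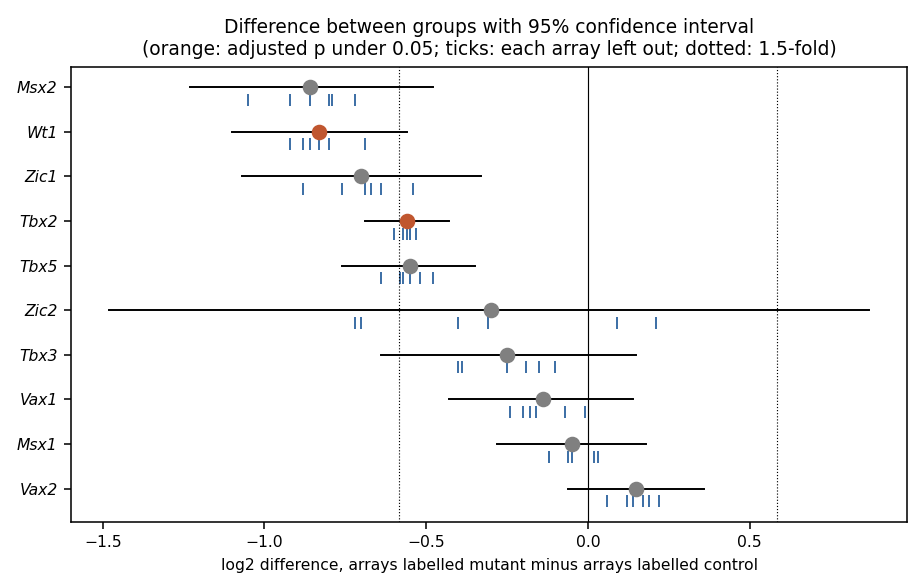
Log2 difference (mutant label minus control label) with its 95% confidence interval for each of the 10 genes, with ticks for the fits without 1 array and dotted lines at a fold of 1.5. *Wt1* and *Tbx2* (orange) passed an adjusted p of 0.05, and the interval of *Tbx2* from -0.69 to -0.43 is the narrowest.

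Relatives of these genes were measured as a list of other *Msx*, *Zic* and T-box genes, of which 14 of 17 had a probe set of their own. Of these 1 was lower and 0 were higher, with a median of -0.10. The lower gene was *Tbx20*, a T-box gene of heart development, at 4.28, 4.43 and 4.50 with the control label and 3.84, 3.74 and 3.84 with the mutant label (log2 signal). The groups did not overlap, and the difference was -0.60 (SE 0.07, adjusted p = 0.019, limma), but every value is under the median of its array. *Zic4*, the neighbour of *Zic1*, and *Zic5*, the neighbour of *Zic2*, had differences of -0.05 (SE 0.06) and -0.11 (SE 0.12).

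Other ciliary margin genes were compared next. Of 15, all measured, 0 were lower and 1 was higher at an adjusted p under 0.05, with a median of -0.04, and the groups did not overlap for 3 lower and 2 higher genes (5.17% and 6.23% of all genes). The higher gene was *Wnt2b*, a Wnt ligand of the rim and the dorsal RPE, at 7.16, 7.13 and 7.09 with the control label and 7.83, 7.85 and 7.93 with the mutant label (log2 signal). The groups were far apart, and *Wnt2b* was 1.67-fold higher (difference 0.74, SE 0.06, adjusted p = 0.0021, limma). Its direction was thus opposite to that of *Wt1* and *Tbx2*, and, as labelled, to the one the study gives for *Wnt2b*.

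Of 13 other genes of the dorsal cup 0 passed the test in either direction, with a median of -0.06, and 3 were lower without overlap (5.17% of all genes). *Gdf6*, a bone morphogenetic protein of the dorsal eye, had a difference of -0.41 (SE 0.09, adjusted p = 0.20), and *Efnb2*, an ephrin of the dorsal retina, one of -0.22 (SE 0.06, adjusted p = 0.42, limma). *Bmp4*, the dorsal ligand upstream of *Tbx5*, gave log2 signals of 7.60, 7.56 and 7.78 in the control-labelled group and 7.68, 7.75 and 7.76 in the mutant-labelled group, which overlapped (difference 0.08, SE 0.07, 95% confidence interval from -0.09 to 0.25). *Bmp4* was named after its value was seen.

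Of the 10 of 11 ventral genes measured 0 passed, with a median of 0.01. *Nr2f1*, an orphan nuclear receptor of the optic stalk and ventral cup, had a difference of -0.25 (SE 0.07, adjusted p = 0.39), and *Bmpr1b*, a bone morphogenetic protein receptor of the ventral retina, one of 0.20 (SE 0.08, adjusted p = 0.74, limma). Of the 7 of 8 genes of the nasal to temporal axis 0 passed, with a median of 0.00. *Epha3*, an ephrin receptor, had a difference of -0.27 (SE 0.07, adjusted p = 0.38), and *Efna5*, an ephrin, one of 0.14 (SE 0.07, adjusted p = 0.89, limma). At an unadjusted p under 0.05 the dorsal, ventral and nasal to temporal lists held 3, 1 and 1 lower genes and 0, 1 and 0 higher ones, against 2.81% lower and 3.52% higher of all genes.

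**Figure D4:**
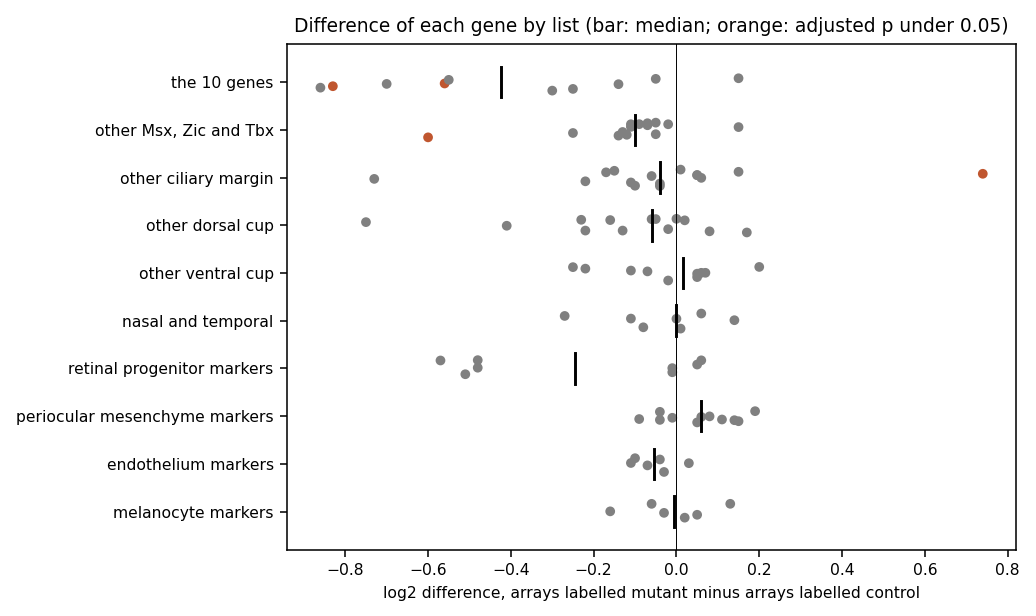
Log2 difference (mutant label minus control label) of every measured gene in each list, with 1 point per gene, orange at an adjusted p under 0.05 and a bar at the median. The 10 genes have a median of -0.43, the other ciliary margin, dorsal, ventral and nasal to temporal lists have medians between -0.06 and 0.01, and *Wnt2b* stands alone on the right at 0.74. The retinal progenitor markers have a median of -0.25 and the other *Msx*, *Zic* and T-box genes one of -0.10. Those of the periocular mesenchyme, endothelial and melanocyte markers are 0.06, -0.06 and -0.01.

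Genes with the most similar profile were sought among the 376 with an SD of at least 0.3 over the 6 arrays, for *Wt1*, *Tbx2*, *Msx2* and *Zic1*. Pearson's r over 6 arrays is a description here, since the 2 groups alone can set it. For *Wt1* the nearest were *Bmp6* (0.945), a bone morphogenetic protein, *Cldn19* (0.944), a tight junction claudin of the RPE, and *Ttr* (0.942), the retinol carrier transthyretin. For *Tbx2* they were *Tbc1d9* (0.983), *Qrfprl* (0.983) and *Ttr* (0.971). *Ttr* is the RPE marker of these, and its log2 signal was 10.87, 10.91 and 11.40 with the control label and 8.94, 8.90 and 9.02 with the mutant label.

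For *Msx2* the nearest profiles were those of *Man1a* (0.985), a mannosidase of the Golgi, *Rtn4rl1* (0.975) and *Ccn3* (0.972), a secreted matricellular protein. All of these shared with *Msx2* the lowest control value on control replicate 1. For *Zic1* they were *Mab21l2* (0.986), a gene of eye and lens development that is also on the ciliary margin list, *Frmd3* (0.975) and *Chrnb4* (0.972), a nicotinic receptor subunit. *Mab21l2* measured 8.83, 8.69 and 9.10 (log2) across control replicates 1, 2 and 3, against 8.44, 8.17 and 7.80 across mutant replicates 1, 2 and 3, in the same order of arrays as *Zic1*. Its difference was -0.73 (SE 0.17, adjusted p = 0.25, limma).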

How the data were processed

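RPE from embryos at E15.5 was measured on 3 arrays labelled control and 3 labelled mutant, grouped by the sample labels. The authors deposited a log2 signal for each probe set and array, already summarized and normalized. The submitters' processing notes name Partek, and how background and summarization were handled is not given in the sources used here. A second deposited table gives group means with the authors' p-values, ratios and fold changes of 100 entries. Only its means were used, to compare directions.

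Of 21789 probe sets annotated with 1 symbol, 21698 had a gene identifier found in RefSeq. Group differences were fitted with limma 3.58.1 (lmFit, eBayes; R 4.3.3; Python 3.11.15 for tables) over the 23410 probe sets with at least 1 symbol, without covariates, with Benjamini-Hochberg adjustment and a threshold of 0.05. An adjusted p without a named test comes from limma. The t-test that the methods name was an alternative. The fit was tested on simulated data. No detection calls were used, and 3 arrays per group limit the precision. P-values measure the spread between pooled tubes.

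Named are the 10 genes, *Pax6*, in each other list up to 4 genes at an adjusted p under 0.05 or else the 2 with the smallest p (of the marker lists, only genes that a result turns on), and the 3 genes most correlated with each of the 10 that passed either threshold. *Sox2*, *Bmp4*, *Tbx4*, *Zic4*, *Zic5*, *Them7*, *Rcn1*, *Rpe65* and *Best1* were named after their values were seen. Genes and lists were chosen with earlier results of these data known. Alternatives were the tested probe sets, dim probe sets, variance trend, array weights, quantile normalization, 75th percentile centring, averaged probe sets, the replicate block and leaving out arrays.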

Additional observations from a re-analysis of the deposited data

How the results depend on the processing

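Signals of *Msx1*, *Msx2*, *Tbx5*, *Vax2*, *Wt1* and *Zic2* lie near the array median. So do those of *Zic1* on mutant replicates 2 and 3 (5.20 and 4.93, against array medians of 4.88 and 4.87). With no detection calls used it is not known how much of their lower range is background. This limit holds for the genes without a difference, *Msx1* and *Vax2*, too. The differences of *Wt1*, *Tbx2*, *Tbx5*, *Msx2*, *Zic1*, *Tbx3*, *Vax1* and *Vax2* kept their sign in each fit that left out 1 array. Those fits gave -0.92 to -0.69 for *Wt1*, -0.60 to -0.53 for *Tbx2*, -0.64 to -0.48 for *Tbx5*, -1.05 to -0.72 for *Msx2*, -0.88 to -0.54 for *Zic1*, -0.12 to 0.03 for *Msx1* and -0.72 to 0.21 for *Zic2*, with 0 to 2 of the 10 genes lower at an adjusted p under 0.05. *Msx1* turned to 0.02 without control replicate 1 and to 0.03 without mutant replicate 1, and *Zic2* to 0.09 without control replicate 1 and to 0.21 without mutant replicate 3. The count fell to 0 when control replicate 3, mutant replicate 2 or mutant replicate 3 was dropped, and to 1 for control replicate 2; over all 23410 probe sets those fits called 3, 3, 3 and 5 lower, against 19 with all arrays. The number lower at the methods' threshold stayed at 3 or 4.

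With all 35556 probe sets tested, 6 were lower, 1 of the 10 genes passed, and *Wt1* (-0.83) had an adjusted p of 0.15 while *Tbx2* passed at 0.044. By the methods' t-test 0 passed, with an adjusted p of 0.58 for *Wt1* (-0.83) and 0.20 for *Tbx2* (-0.56), with unadjusted p of 0.0047 and 0.00013, and after adjustment this test called 0 of all probe sets. *Tbx5* passed under 75th percentile centring (-0.58) and with probe sets averaged (-0.55). The cause was not tested. Both of the next settings were chosen after seeing the data. Without control replicate 1 and mutant replicate 3, 1 gene passed: *Msx2* (-1.12, adjusted p = 0.015), while *Wt1* (-0.90, 0.15) and *Tbx2* (-0.55, 0.11) did not, *Msx1* turned to 0.01 and *Zic2* to 0.61. With the retinal progenitor mean as a covariate 4 passed, *Wt1*, *Tbx2*, *Tbx5* (-0.59, adjusted p = 0.016) and *Msx2* (-0.92, 0.037), and *Zic2* turned to 0.02.

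Whether replicate numbers pair the samples is not known, since the labels do not say what a number marks. Deviations of same-numbered arrays correlated at 0.367, -0.06 and 0.075, and control replicate 2 correlated best with mutant replicate 3 (0.367). These values do not settle the pairing. With the replicate number as a block, *Tbx2* had an adjusted p of 0.031 and *Wt1* of 0.029, the other 8 genes did not pass, and 14 probe sets were lower and 63 higher, against 19 and 66 without it.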
